A study of Mus musculus with 48 samples.

Results

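The replication-dependent histone genes are the genes that supply histones H1, H2A, H2B, H3 and H4 while DNA is copied. Members were chosen by name, as the genes of the deposited expression table whose symbol begins with Hist1h, Hist2h, Hist3h or Hist4h. The rule found 69 members among 24444 genes, of which 6 encode H1, 19 H2A, 19 H2B, 12 H3 and 13 H4, and it used no measured value. By locus, 55 members are in Hist1 on chromosome 13, 10 in Hist2 on chromosome 3, 3 in Hist3 on chromosome 11 and 1 is Hist4h4. Hist3h2bb-ps and Hist2h3c2 are annotated as pseudogenes and were counted with H2B and H3.

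The cortex of 48 male C57BL/6J mice was profiled by polyA RNA-seq. WT littermates were compared with mice heterozygous for Chd8 V986*/+, a germline allele made with CRISPR that carries tandem stop codons in Chd8, an autism-linked chromatin remodeler. The V986*/+ mice are called HET below. There were 8 groups of 6 mice, WT and HET embryos of E14.5 and WT and HET postnatal mice aged 1, 6 or 12 months. From each mouse, 1 hemisphere was taken. The question addressed here is how the histone genes differed between ages and between genotypes in this tissue.

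A dividing cell doubles its chromatin in S phase, and replication-dependent histone genes are switched on for that period. Their transcripts are unlike most mRNAs, since they carry no introns and usually end in a short stem-loop instead of a polyA tail. The stem-loop is bound by SLBP and is cut downstream with the help of the U7 snRNP. When a cell leaves the cycle, these mRNAs decay, and variant histones such as H3.3 (H3f3a and H3f3b) replace the canonical ones. Some replication-dependent genes can also make a longer, polyadenylated transcript by reading past the stem-loop. Because the libraries were selected for polyA, an mRNA that ends at its stem-loop is poorly captured, and the part of this in the values was not tested.

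To show which members carry the processing signal, the mm9 sequence downstream of each coding sequence was searched for the stem-loop pattern on the gene's strand within 300 bases. The pattern was GG, 2 free bases, CTTTT, 1 free base, AG, 2 free bases and CC. For both pseudogenes, which have no annotated coding sequence, the search began at the end of the gene instead. An exact match was found in 62 of 69 members, 24 to 61 bases past the coding or gene end. The members printed here stand for the sequence forms and for the genes whose values are described in detail. The stem-loop is in capitals, with 5 bases on either side, read 5′ to 3′ on the gene's strand.
Hist1h2bc: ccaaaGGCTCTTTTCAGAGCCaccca
Hist1h1c: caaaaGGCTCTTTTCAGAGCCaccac
Hist3h2ba: ccaaaGGCTCTTTTCAGAGCCacctt
Hist1h3c: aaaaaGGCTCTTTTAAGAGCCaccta
Hist2h2ac: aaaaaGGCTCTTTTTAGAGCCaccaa
Hist1h4h: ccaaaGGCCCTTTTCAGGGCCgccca
Hist1h4i: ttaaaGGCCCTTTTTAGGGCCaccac
Hist1h4b: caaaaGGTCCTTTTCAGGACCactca
In mm9, the capitals lie at chr13:23776516-23776531 (plus strand) for Hist1h2bc, chr13:23831381-23831396 (plus) for Hist1h1c, chr11:58762851-58762866 (plus) for Hist3h2ba and chr13:23836916-23836931 (minus) for Hist1h3c. They lie at chr3:96024341-96024356 (minus) for Hist2h2ac, chr13:23623327-23623342 (plus) for Hist1h4h, chr13:22132835-22132850 (minus) for Hist1h4i and chr13:23849235-23849250 (plus) for Hist1h4b. In the GENCODE annotation used here, 7 of these 8 stem-loops lie in an exon past the coding end, and that of Hist1h2bc lies in an intron. The form of Hist1h2bc, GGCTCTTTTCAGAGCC, was the commonest, with 40 members and no H4 gene among them. The form of Hist1h3c was in 9 members, also without an H4 gene, and that of Hist2h2ac was in 1. The H4 genes had forms of their own, with 8 members like Hist1h4h, 2 like Hist1h4i (the other was Hist2h4) and 2 like Hist1h4b (the other was Hist1h4j). The 7 members without an exact match were Hist1h2al, Hist1h2an, Hist1h3g, Hist1h4a, Hist2h2bb, Hist2h2be and Hist2h3c2.

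The values are variance-stabilized (VST) expression values on a log2 scale, in which 1 unit is about a doubling for well-expressed genes and less for genes near the floor. The floor, 2.1433, is the most frequent value and was taken as that of a gene with no counts. Values of genes at the floor lie slightly above or below it, by a gene's own shift between replicates 1 to 3 and replicates 4 to 6. VST values are not scaled to gene length, so levels are compared between groups for 1 gene and not between genes. Library depth for single genes is not known from this table. Chd8 itself was lower in every HET mouse than in every WT mouse of the same age, with WT and HET means of 12.55 and 11.92 in embryos, 11.72 and 11.05 in 1-month mice, 11.75 and 11.11 in 6-month mice, and 11.65 and 11.11 in 12-month mice. At E14.5, markers of midbrain, hindbrain and spinal cord varied between mice, with a list mean of 3.24 to 6.92 in WT and 3.22 to 4.48 in HET mice. WT replicates 2, 3 and 5 lay above every HET mouse, and the class means, the counts of calls and the genotype effects that use WT E14.5 are also given without them. The 5 markers of cortex had a list mean of 11.74 in WT and 12.07 in HET embryos and 10.92 and 10.97 in 1-month mice, far above the floor. In bulk tissue, fewer cycling cells and less histone mRNA per cell cannot be told apart.

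Of the 69 members, 46 had a mean over the 48 mice at least 0.5 above the floor, 14 lay nearer to it and 9 were at 2.1433 in all 48 mice. The 9 constant members were Hist1h2aa, Hist1h2ao, Hist1h2ap, Hist1h2ba, Hist1h2bq, Hist1h2br, Hist1h4n, Hist2h3c1 and Hist2h3c2. Of these, Hist1h2ao and Hist1h2ap share all of their 50-base windows with each other, Hist1h2bq shares 97.9% with Hist1h2br, and Hist2h3c2 shares 64.1% with Hist2h3c1. Hist2h2aa1 and Hist2h2aa2 also share all of theirs with each other and were not constant, with means of 2.31 and 2.60. The part of shared sequence in the floor values was not tested. The 14 members near the floor ranged from Hist1h1t, the testis-specific H1, with a mean of 2.21, to Hist1h4f, with a mean of 2.63. In between were Hist2h2aa1, Hist1h2al, Hist1h2ah, Hist1h2an, Hist1h2bf, Hist1h2bl, Hist1h2bp, Hist1h3b, Hist1h2bk, Hist1h3g, Hist2h2aa2 and Hist1h2ag. The members just above that line were Hist1h2bj, at 2.67, and Hist1h2ai and Hist1h3h, both at 2.68. The members above the line were 5 of 6 H1, 10 of 19 H2A, 12 of 19 H2B, 8 of 12 H3 and 11 of 13 H4 genes.

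The distance to the floor sets how well a gene can be followed, and for 11 members it was largest. The means over 48 mice were 8.35 for Hist1h2bc, 8.19 for Hist3h2a, 8.14 for Hist2h2be, 8.12 for Hist3h2ba, 6.99 for Hist1h1c and 5.94 for Hist1h2be. The next were Hist1h1e at 5.0, Hist1h4i at 4.75, Hist1h4h at 4.36, Hist2h2bb at 4.32 and Hist1h4k at 4.08. No H3 member was among these 11.

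Every class was lower after birth than at E14.5, in both genotypes. The mean over the 6 H1 members, the linker histones that bind DNA between nucleosomes, was 4.91 ± 0.57 (SD, n = 6) at E14.5 and 3.77 ± 0.13 at 1 month in WT mice, and 5.0 ± 0.48 and 3.88 ± 0.07 in HET mice. The mean over the 12 H3 members, which form the centre of the nucleosome with H4, was 3.55 ± 0.29 and 2.46 ± 0.12 in WT mice, and 3.64 ± 0.33 and 2.45 ± 0.05 in HET mice. For the 13 H4 members, it was 3.89 ± 0.29 and 3.10 ± 0.11 in WT mice, and 3.92 ± 0.23 and 3.10 ± 0.11 in HET mice. The class means of H1, H3 and H4 at E14.5 and 1 month did not overlap in either genotype.

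The mean over the 19 H2A members was 3.52 ± 0.22 at E14.5 and 2.73 ± 0.06 at 1 month in WT mice, and 3.62 ± 0.13 and 2.71 ± 0.04 in HET mice. For the 19 H2B members, the partners of H2A in the nucleosome, it was 4.37 ± 0.28 and 3.62 ± 0.09 in WT mice, and 4.43 ± 0.19 and 3.59 ± 0.10 in HET mice. These groups did not overlap either. From E14.5 to 1 month, the class means of WT mice thus moved by -1.13 for H1, -1.09 for H3, -0.79 for H4, -0.78 for H2A and -0.75 for H2B, and those of HET mice by -1.12, -1.19, -0.82, -0.91 and -0.84. Without WT E14.5 replicates 2, 3 and 5, the WT values were -1.08, -1.13, -0.81, -0.78 and -0.71, and the ages did not overlap in any class. The mean over all 69 members was 3.09 in WT and 3.08 in HET mice aged 1 month, 3.14 and 3.03 in those aged 6 months, and 3.13 and 3.03 in the oldest mice, so that nearly all of the difference in this mean lay before 1 month. Of the 69 members, 9 were at the floor in all mice. Only 29 passed the filter from 1 to 6 months in WT mice, so this mean could show little further fall.

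**Figure D1:**
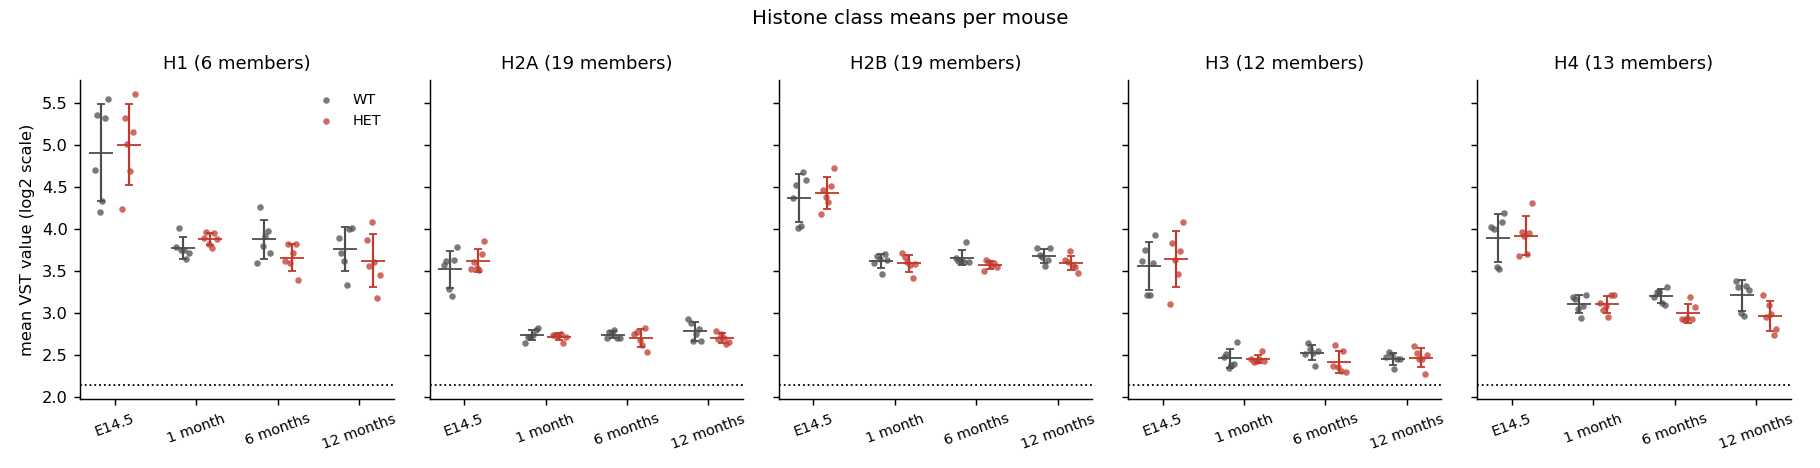
Mean VST value (log2 scale) over the members of each histone class, with 1 point per mouse, WT in grey and HET in red, against age. Horizontal marks and bars are the mean and SD of 6 mice, and the dotted line is the floor at 2.1433. In each class the E14.5 mice lie above the 1-month mice, and the postnatal ages lie close together.

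From E14.5 to 1 month, 51 of 69 members had a lower mean in WT mice, 8 a higher one and 10 the same one. Genes were tested with limma where their mean over the 12 mice compared was at least 0.5 above the floor, and called at an adjusted p below 0.1. Of 53 members tested in WT mice, 41 fell, 3 rose and 9 were not called, where 42.3% of all tested genes fell and 43.4% rose. Many of these members passed the filter only through E14.5 and so had to be lower at 1 month. The p-values given below for such members describe genes chosen in this way. Among the 29 members above the filter at both ages, 17 fell and 3 rose, with a median difference of -1.0, where 42.9% of all such genes fell and 42.8% rose. In HET mice, 46 of 53 tested members fell and 3 rose (42.4% and 43.7% of all genes), and 21 and 3 of 28 did so among those above the filter at both ages (43.0% and 43.0% of all genes), with a median of -0.94. All 1-month mice lay below all E14.5 mice for 29 members in WT (33.5% of all genes) and for 29 in HET mice (33.9%), but among members above the filter at both ages this held for 9 of 29 and 9 of 28, where 34.5% and 34.9% of all such genes did so. Without WT E14.5 replicates 2, 3 and 5, an alternative chosen after seeing the data, 38 of 52 tested members fell and 3 rose in WT mice. Of the 17323 genes tested in that fit, 14324 were called in either direction. The members named here kept their calls, Hist1h1e narrowly (-0.61, adjusted p = 0.098).

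By class, in WT mice, 4 of 5 tested H1, 10 of 12 H2A, 11 of 14 H2B, 8 of 10 H3 and 8 of 12 H4 members fell, and 1 H1 and 2 H2B members rose. In HET mice, 4 of 5 H1, 10 of 11 H2A, 13 of 15 H2B, 10 of 10 H3 and 9 of 12 H4 members fell, and again 1 H1 and 2 H2B members rose. Among members above the filter at both ages, 3 of 4 H1, 3 of 5 H2A, 7 of 10 H2B, 0 of 2 H3 and 4 of 8 H4 members fell in WT mice, and 4 of 5, 4 of 5, 6 of 8, 2 of 2 and 5 of 8 in HET mice. The classes were not tested against each other. The members that rose were Hist1h1c, Hist1h2bc and Hist1h2be in both genotypes. Over the same step, all 17 tested markers of proliferating cells fell (median -3.98 in WT and -4.0 in HET mice). All 5 neural progenitor and all 8 erythroid markers fell as well, and all 5 astrocyte, 6 oligodendrocyte lineage and 5 microglia markers rose in both genotypes. The part of these cell types in the histone values was not tested.

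**Figure D2:**
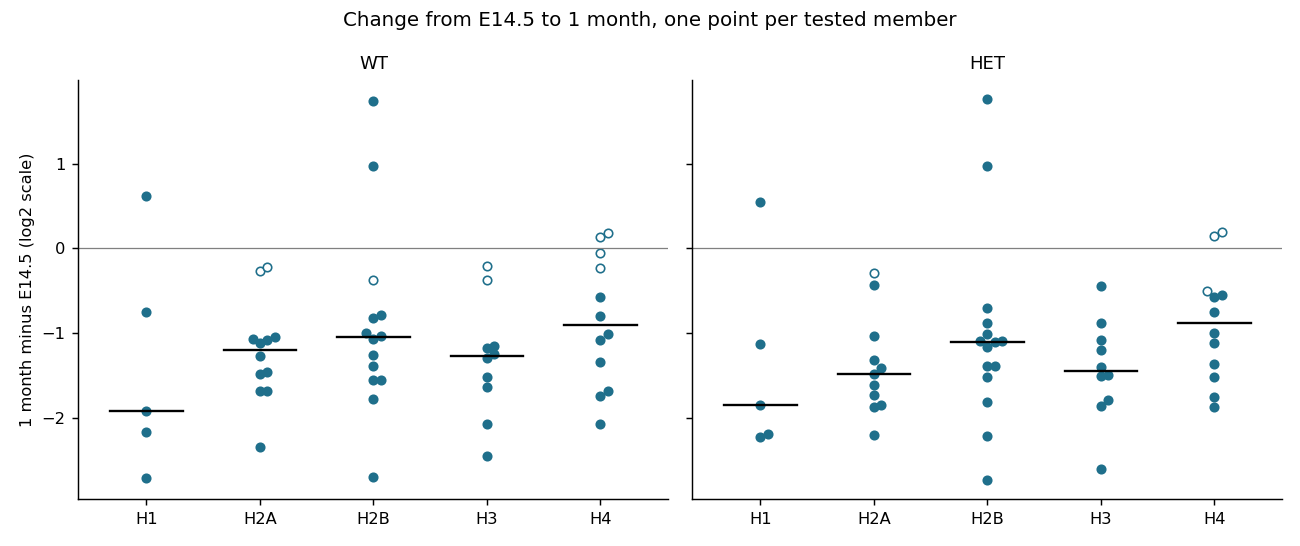
Difference between 1 month and E14.5 (log2 scale) for each tested member by class, in WT and HET mice. Filled points were called by limma at an adjusted p below 0.1, open points were not, and bars are class medians. Most points lie below 0, although many of these members passed the filter only through E14.5 and so had to lie there. The 3 called members above 0 in each genotype are Hist1h1c, Hist1h2bc and Hist1h2be.

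Among H1 genes, Hist1h1d, Hist1h1a and Hist1h1b fell and Hist1h1c rose. Hist1h1d read 4.55, 5.51 and 6.33 (lowest, median and highest of 6 mice) at E14.5 and 2.08, 2.84 and 3.27 at 1 month in WT mice, with 2 of the 6 one-month mice at the floor. The difference was -2.72 (SE 0.31, limma adjusted p = 5.9e-07) in WT and -2.20 in HET mice, and the ages did not overlap in either genotype. Hist1h1a moved by -2.17 in WT and -1.85 in HET mice, and Hist1h1b by -1.92 and -2.23. Hist1h1e was the least clear of the H1 genes that fell. It read 4.38, 5.92 and 6.59 at E14.5 and 4.54, 5.02 and 5.26 at 1 month in WT mice, so the ranges overlapped. Its difference of -0.75 (adjusted p = 0.068) in WT mice lost its call without any 1 of WT E14.5 replicates 2, 5 and 6 or WT 1-month replicates 4 and 5. It was also not called without the filter (adjusted p = 0.12) or in replicates 1 to 3 alone, where Hist1h1e moved by -0.23 (adjusted p = 0.66). In HET mice it was -1.13 (adjusted p = 0.0014).

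Hist1h1c encodes the H1 subtype that is also found in many non-dividing cells, and lies at chr13:23830676-23832235 (plus strand). It read 6.21, 6.61 and 7.04 at E14.5 and 6.99, 7.20 and 7.43 at 1 month in WT mice. In HET mice it read 6.41, 6.69 and 6.91, and then 7.10, 7.18 and 7.45. The difference was 0.62 (SE 0.14, adjusted p = 0.00051) in WT and 0.55 (SE 0.11, adjusted p = 0.00015) in HET mice. All 6 HET mice and 5 of 6 WT mice at 1 month lay above every E14.5 mouse of their genotype. In replicates 4 to 6 alone, the WT difference was not called (0.39, adjusted p = 0.11).

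Among H2A genes, Hist1h2ab fell from 3.37, 4.79 and 5.20 to the floor in all 6 WT mice at 1 month, a difference of -2.35 (SE 0.28, adjusted p = 1e-06), and by 2.20 in HET mice. Hist1h2ag, Hist1h2ak and Hist1h2ai moved by -1.69, -1.68 and -1.48 in WT mice, and were at the floor in 6, 4 and 5 of the 6 WT mice at 1 month. Like Hist1h2ab, they passed the filter only through E14.5, so they had to be lower at 1 month. Hist3h2a (mm9 chr11:58768187-58770176, plus strand) stayed well above the floor. It read 9.24, 9.35 and 9.45 at E14.5 and 7.84, 8.09 and 8.32 at 1 month in WT mice, a difference of -1.28 (SE 0.08, adjusted p = 3.6e-10). In HET mice, it moved by -1.32, and the ages were far apart in both genotypes. The annotated Hist3h2a shares 708 bases of exon on the same strand with Trim17, a ubiquitin ligase gene, which moved the other way over this step, by 1.76 in WT and 1.84 in HET mice. Hist1h2ac and Hist1h2ad were not called in WT mice, at -0.26 and -0.22.

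The H2B class held members that moved far in either direction. Hist3h2ba (chr11:58762413-58763032, plus strand) read 10.21, 10.39 and 10.51 at E14.5 and 7.47, 7.73 and 7.85 at 1 month in WT mice. In HET mice it read 10.12, 10.30 and 10.56, and then 7.42, 7.59 and 7.69. The difference was -2.71 (SE 0.07, adjusted p = 1.3e-14) in WT and -2.74 (SE 0.08, adjusted p = 9.6e-15) in HET mice, and the gap between the ages was wider than the range within any of these groups. Hist2h2be, whose sequence has no exact stem-loop match, read 8.82, 9.06 and 9.16 and then 7.40, 7.64 and 7.83 in WT mice, a difference of -1.39 (SE 0.09, adjusted p = 3.3e-10), and moved by -1.51 in HET mice. Hist1h2bm, Hist1h2bk and Hist1h2bb moved by -1.78, -1.56 and -1.56 in WT mice and were at the floor in 3, 6 and 4 of the 6 WT mice at 1 month.

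Hist1h2bc (chr13:23776068-23784357, plus strand, a model of 2 exons) rose. It read 6.85, 7.03 and 7.36 at E14.5 and 8.61, 8.82 and 8.91 at 1 month in WT mice. In HET mice it read 6.99, 7.17 and 7.27, and then 8.79, 8.91 and 9.0. In both genotypes the lowest 1-month mouse lay more than 1 unit above the highest embryo. The difference was 1.74 (SE 0.09, adjusted p = 3.9e-11) in WT and 1.77 (SE 0.07, adjusted p = 5.6e-13) in HET mice, and it was called in every alternative tried. Of its 50-base windows, 47.3% also occur in another member, so part of its reads could have been assigned to or from its relatives.

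Hist1h2be (chr13:23675611-23712993, minus strand) also rose, with much more spread between embryos. It read 3.67, 5.52 and 6.38 at E14.5 and 5.83, 5.95 and 6.72 at 1 month in WT mice. In HET mice it read 3.61, 5.33 and 5.96, and then 5.55, 6.05 and 6.19. Ranges overlapped, and 1 of 6 WT and 5 of 6 HET mice at 1 month lay above every embryo. The difference was 0.97 (SE 0.40, adjusted p = 0.035) in WT and 0.97 (SE 0.29, adjusted p = 0.0062) in HET mice. In WT mice the call was lost with quantile normalization (0.70, adjusted p = 0.11) and in replicates 4 to 6 alone (0.69, adjusted p = 0.29), and the exact two-sided permutation test gave p = 0.065.

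**Figure D3:**
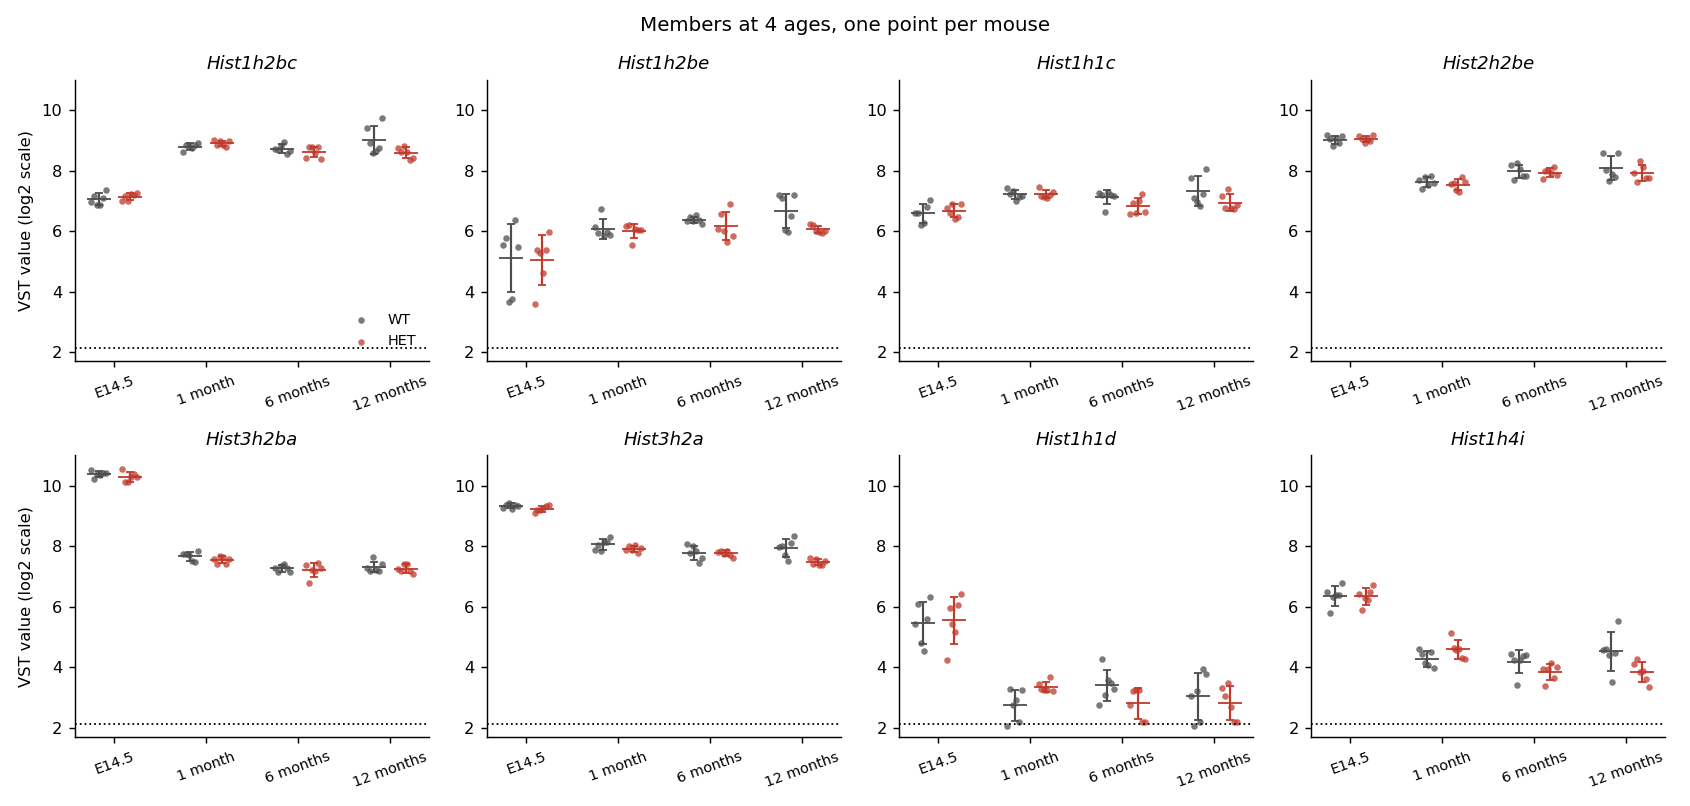
VST value (log2 scale) of 8 members at 4 ages, 1 point per mouse, WT in grey and HET in red. Marks and bars are the mean and SD of 6 mice, and the dotted line is the floor. Hist1h2bc, Hist1h2be and Hist1h1c are higher at 1 month than at E14.5, and the other 5 are lower.

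H3 members left little signal in postnatal cortex. Hist1h3c read 4.10, 4.75 and 5.45 at E14.5 and 2.08, 2.20 and 2.80 at 1 month in WT mice, with 5 of 6 mice at the floor, a difference of -2.46 (SE 0.21, adjusted p = 1.9e-08). In HET mice, all 6 were at the floor at 1 month and the difference was -2.61. Hist1h3c passed the filter only through E14.5, so it had to be lower at 1 month. Hist1h3e, Hist1h3h and Hist1h3a moved by -2.07, -1.63 and -1.52 in WT mice. Only 2 of 12 H3 members, Hist1h3d and Hist2h3b, were above the filter at both ages in WT mice. Neither was called there (-0.21 and -0.38), whereas in HET mice Hist1h3d moved by -0.88 (adjusted p = 0.014) and Hist2h3b by -0.45 (adjusted p = 0.031). The difference between genotypes in this step was not called for any member.

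H4 members were divided. Hist1h4i (chr13:22132685-22133221, minus strand) read 5.79, 6.39 and 6.80 at E14.5 and 3.97, 4.29 and 4.6 at 1 month in WT mice, a difference of -2.08 (SE 0.17, adjusted p = 8.7e-09), and moved by -1.75 in HET mice. No postnatal mouse reached the lowest embryo in either genotype. Hist1h4b, Hist1h4d and Hist1h4j moved by -1.74, -1.69 and -1.34 in WT mice. In contrast, Hist1h4h read 3.9, 4.32 and 5.02 and then 3.99, 4.59 and 4.77 in WT mice, a difference of 0.14 (adjusted p = 0.52). Hist2h4 (0.19), Hist1h4k (-0.05) and Hist1h4m (-0.23) were likewise not called in WT mice, and among these 4 genes only Hist1h4m, at -0.55 (adjusted p = 0.099), was called in HET mice.

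The other genes of histone supply are a separate list and were described by the same fits. From E14.5 to 1 month 42.3% of all tested genes fell and 43.4% rose in WT mice, and 42.4% and 43.7% in HET mice. Of 11 replication-independent histone genes, 10 fell in both genotypes, with a median over the list of -2.02 in WT and -2.13 in HET mice. H3f3a and H3f3b, which encode the replacement histone H3.3, moved by -2.52 and -2.59 in WT mice. Cenpa, the centromeric H3, moved by -3.34, H2afz, the H2A.Z gene, by -1.83, and H1f0, the H1 variant of non-dividing cells, by -1.77. H2afj was the exception, at 0.02 in WT and -0.06 in HET mice. Of 18 genes for histone mRNA 3′ processing and turnover, 15 fell in WT mice, and 16 fell and 1 rose in HET mice. Slbp, which encodes the stem-loop binding protein, moved by -1.46 in WT and -1.47 in HET mice. Of 18 measured histone chaperone and deposition genes, 16 fell in both genotypes, and of 9 genes of histone gene transcription, 8 fell and 1 rose. Npat, the activator of histone gene transcription in S phase, moved by only -0.19 (adjusted p = 0.0052) in WT and -0.39 (adjusted p = 5.9e-06) in HET mice.

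How far an annotated gene reached past its stem-loop was set beside the change, since a polyadenylated transcript would end in that stretch. For 20 members, the annotated gene ends 100 bases or more past the stem-loop. In WT mice, 3 of these rose, 9 fell, 4 were not called and 4 were not tested, and in HET mice 3 rose, 11 fell, 1 was not called and 5 were not tested. For 42 members it ends less than 100 bases past or before the stem-loop's end, and none of these rose, 27 fell, 5 were not called and 10 were not tested in WT mice, against 0, 31, 3 and 8 in HET mice. In WT mice 35 of these 42 short models were above the filter at E14.5 and 14 at 1 month. Among members above the filter at both ages, 3 of 13 long models rose and 6 fell in WT mice and 3 of 12 rose and 8 fell in HET mice, while 8 of 13 short models fell in WT and 11 of 14 in HET mice with none that rose, beside the 42.9% and 43.0% of all such genes that fell and the 42.8% and 43.0% that rose. The long and short models were not tested against each other. Of the 7 members without an exact match, 5 fell in WT and 4 in HET mice, and the others were not tested. Counted along the genome, the models of the 3 members that rose extend 7826 bases past the stem-loop for Hist1h2bc, 1789 for Hist1h2be and 839 for Hist1h1c. The stem-loop of Hist1h2bc lies in an intron of its model, so its 7826 bases include intron and are not a length of transcript. Genes with long models also fell, such as Hist1h1d (3050 bases) and Hist3h2a (1487 bases). Hist3h2ba, with the deepest H2B fall, extends 166 bases.

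**Figure D4:**
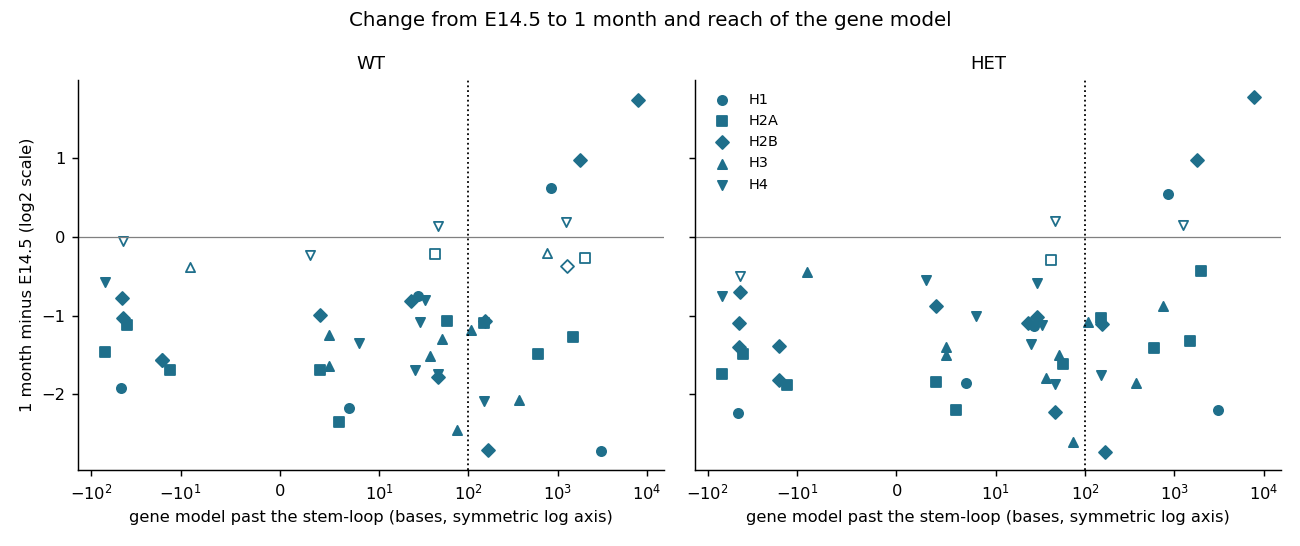
Difference between 1 month and E14.5 (log2 scale) against the number of bases by which the annotated gene extends past its stem-loop, on a symmetric log axis, for tested members with an exact match in WT and HET mice. Bases are counted along the genome, and those of Hist1h2bc include intron. Negative values are models that end before the stem-loop does. Marker shape gives the class, filled markers were called and the dotted line is at 100 bases. The 3 called members above 0 lie to the right of the line, together with members that fell.

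Neighbouring genes did not always move together. Annotated starts of 14 pairs of members face each other, 167 to 692 bases apart in mm9. Hist1h2ac and Hist1h2bc are 250 bases apart (chr13:23775818-23776067), yet Hist1h2bc moved by 1.74 in WT and 1.77 in HET mice and Hist1h2ac by -0.26 (not called) and -0.44 (called). Hist2h2ac and Hist2h2be, 240 bases apart on chromosome 3, moved by -1.07 and -1.39 in WT mice, and Hist1h2ae and Hist1h2bg, 175 bases apart, by -1.09 and -1.07. In Hist3, Hist3h2bb-ps and Hist3h2a moved by -1.03 and -1.28.

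Promoter sequence was taken from RefSeq (GRCm38.p6, another build than the mm9 of the expression values) for 61 of 69 members matched by symbol, as the 250 bases before and 50 after each gene's start. Motifs were searched on both strands. CCAAT, the box bound by NF-Y, was in 85.2% of member promoters and in 41.1% of the 27025 promoters in that table. All 6 H1, 17 H2A, 16 H2B and 10 H3 promoters held it, and 3 of 12 H4 promoters did. TATAAA was in 57.4% of member promoters and 15.7% of all, and ATTTGCAT, the octamer bound by OCT1, in 23.0% and 1.97%. The octamer was found in 7 of 17 H2A and 7 of 16 H2B promoters and in none of the H1, H3 and H4 promoters. Where the starts of 2 members face each other, their windows can cover the same bases. A motif there counts for both members, so these promoters are not all separate sequences. The 250 bases before the start are shown for Hist3h2ba and Hist1h4i, which fell, and for Hist1h1c, which rose, on the gene's strand with these motifs in capitals (in either orientation).
Hist3h2ba: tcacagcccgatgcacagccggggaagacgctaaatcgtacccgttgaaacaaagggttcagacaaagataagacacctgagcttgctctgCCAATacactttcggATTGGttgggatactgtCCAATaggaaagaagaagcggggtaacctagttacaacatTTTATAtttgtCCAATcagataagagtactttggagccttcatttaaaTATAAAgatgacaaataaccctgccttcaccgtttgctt
Hist1h4i: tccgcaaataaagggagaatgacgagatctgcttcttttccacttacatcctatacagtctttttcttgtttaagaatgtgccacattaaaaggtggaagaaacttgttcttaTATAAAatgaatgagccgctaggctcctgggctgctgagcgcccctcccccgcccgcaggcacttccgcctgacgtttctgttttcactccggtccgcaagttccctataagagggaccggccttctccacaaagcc
Hist1h1c: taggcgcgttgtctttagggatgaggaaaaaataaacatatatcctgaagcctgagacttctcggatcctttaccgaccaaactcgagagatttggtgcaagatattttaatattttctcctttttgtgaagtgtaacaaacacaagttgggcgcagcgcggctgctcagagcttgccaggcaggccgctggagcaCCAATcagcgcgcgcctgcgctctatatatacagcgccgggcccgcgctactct
In GRCm38.p6 these are chr11:58948661-58948910 (plus strand), chr13:22041363-22041612 (minus) and chr13:23738557-23738806 (plus). Hist3h2ba holds CCAAT in either orientation 4 times and TATAAA in either orientation 2 times, Hist1h4i holds 1 TATAAA and no CCAAT, and Hist1h1c holds 1 CCAAT. A match describes these letters only. Hist1h2bc and Hist2h2be were not among the 61 matched members, so their promoters were not searched.

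From 1 to 6 months in WT mice, 3 of 29 tested members rose and 3 fell, a share near the background, where 24.6% of all tested genes were called. Hist2h2bb rose from 2.93, 3.66 and 3.9 to 3.92, 4.27 and 4.83 without overlap (3.71% of all genes rose without overlap), by 0.79 (SE 0.21, adjusted p = 0.014). Hist2h2be rose by 0.34 (adjusted p = 0.034) and Hist1h4d by 0.53 (adjusted p = 0.0997). Hist3h2ba went on falling, from 7.47, 7.73 and 7.85 to 7.14, 7.28 and 7.41, by 0.41 (SE 0.08, adjusted p = 0.0025), again without overlap (4.76% of all genes). Hist1h2ae moved by -0.64 (adjusted p = 0.077) and Hist3h2a by -0.27 (adjusted p = 0.083). Leaving out single WT mice left 3 to 6 calls, with 3 without WT 6-month replicate 4. Hist2h2bb, Hist2h2be and Hist3h2ba kept their calls without any 1 mouse, while Hist1h4d lost its call in 21 of 24 alternatives, Hist3h2a in 14 of 25 and Hist1h2ae in 9 of 24. Over this step 6 of 6 oligodendrocyte lineage and 6 of 8 erythroid markers fell in WT mice, and 5 of 6 and 6 of 8 in HET mice. Of the astrocyte and microglia markers, 4 of 5 and 4 of 5 fell in WT mice and 1 of 5 and 0 of 5 in HET mice, a difference between genotypes that was not tested. Their part in the histone values was not tested.

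From 1 to 6 months in HET mice, 1 of 25 tested members rose and 5 fell, again near the background, where 26.8% of all tested genes were called. Hist2h2be rose by 0.39 (SE 0.09, adjusted p = 0.0063), and Hist3h2ba fell by 0.34 (SE 0.10, adjusted p = 0.026), as in WT mice. Hist1h4i read 4.28, 4.59 and 5.12 at 1 month and 3.38, 3.95 and 4.13 at 6 months, a difference of -0.75 (SE 0.18, adjusted p = 0.0079). Hist1h2bc moved by -0.29 (adjusted p = 0.012), from 8.79, 8.91 and 9.0 to 8.40, 8.67 and 8.77. Neither Hist1h4i nor Hist1h2bc overlapped between these ages (4.89% of all genes fell without overlap). Hist1h1c moved by -0.40 (adjusted p = 0.021) and Hist1h2ae by -0.67 (adjusted p = 0.057). Without HET 1-month replicates 1 or 5 or HET 6-month replicate 5, Hist1h2ae was not called.

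From 6 to 12 months, limma called 0 of 30 members in WT mice, where 0.00579% of all tested genes were called, and 1 member, Hist1h4b, had an unadjusted p below 0.05 (-0.47, adjusted p = 0.72), as did 6.75% of all tested genes. Other fits of this step also called 0 members. In HET mice 1 of 25 members was called, where 3.43% of all tested genes were. Hist3h2a moved from 7.60, 7.78 and 7.86 to 7.39, 7.47 and 7.62, by -0.28 (SE 0.07, adjusted p = 0.060). In this step, 5 of 6 HET mice at 12 months lay below every HET mouse at 6 months. The call was lost without any 1 of HET 6-month replicates 2, 3 and 4 and HET 12-month replicates 2, 4 and 5 (adjusted p of 0.10 to 0.14). With a replicate block it was lost too.

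Between genotypes, limma called 0 members at each age, with 56 members tested in embryos, 28 in 1-month, 31 in 6-month and 29 in 12-month mice. Of all tested genes, 0.00593%, 0.139%, 0.0927% and 0.0463% were called. At an unadjusted p below 0.05 there were 0, 1, 5 and 6 members, where 4.56%, 8.8%, 7.59% and 11.6% of all tested genes had such a p. The alternative fits called no member at E14.5 and 1 month, 1 at most at 6 months and 3 at most at 12 months. At E14.5, 17 of 56 members were below 0 in HET minus WT, with a median of 0.09, and at 1 month 11 of 28, with a median of 0.06. At 6 months 27 of 31 were below 0, with a median of -0.22, and at 12 months 23 of 29, with a median of -0.18, where 49.6%, 51.4%, 50.4% and 48.6% of all tested genes were below 0 at the 4 ages. A member that passed the filter through WT mice alone had to lie below 0. Among members above the filter in both genotypes, 21 of 24 were below 0 at 6 months, with a median of -0.16, and 19 of 23 at 12 months, with a median of -0.18. Over all 69 members, those lower and higher in HET numbered 18 and 42, 27 and 30, 41 and 18, and 37 and 20, and the rest were equal. The members share mice and, for many, sequence, so these counts carry no test.

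Of the cell type markers, limma called none between genotypes at any age, but several lists lay mostly on 1 side of 0. At E14.5, 17 of 17 proliferating markers were above 0 in HET minus WT (median 0.19), with list means of 10.9 ± 0.28 in WT and 11.1 ± 0.20 in HET mice (SD, n = 6). All 5 neural progenitor markers (median 0.09) and all 5 cortex markers (median 0.36) were above 0 too, and 13 of 13 tested markers of midbrain, hindbrain and spinal cord were below 0 (median -1.24). All 5 ganglionic eminence markers were above 0 (median 0.22, 2 with an unadjusted p below 0.05). All 8 erythroid (median -0.29) and all 5 neuron markers (median -0.07) were below 0. At 1 month, all 4 choroid plexus (median 0.58) and all 8 erythroid markers (median 0.14) were above 0. All 5 astrocyte (median -0.06) and all 5 endothelial markers (median -0.21, 1 with such a p) were below 0. At 6 months, all 5 astrocyte markers were above 0 (median 0.14, 3 with an unadjusted p below 0.05), 4 of 6 oligodendrocyte lineage markers were below 0 (median -0.13, 3 with such a p), and all 4 choroid plexus markers were below 0 (median -0.63). All 5 microglia (median 0.05, 2 with such a p) and all 5 endothelial markers (median 0.20) were above 0 at this age. At 12 months, 4 of 5 neural progenitor markers were above 0 (median 0.33, 3 with such a p), and all 4 choroid plexus markers were below 0 (median -0.31). All 5 microglia markers were above 0 (median 0.11, 1 with such a p). The proliferating markers lay on both sides of 0 in the adults, with 8 of 17 below 0 in 6-month and 9 of 17 in 12-month mice. The part of these cell types in the histone values was not tested.

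At E14.5, embryos of both genotypes were widely spread. The mean over the 46 members above the floor ranged from 4.10 in WT replicate 4 to 5.12 in HET replicate 6, and HET replicate 6 was the highest of 12 embryos for 21 members. WT replicates 3 and 4 were the lowest of 12 for 14 and 15 members. The list mean of proliferating markers was 10.6 in WT replicate 3, 10.9 in WT replicate 4 and 11.3 in HET replicate 6. The 2 measures did not always go together, since WT replicates 2 and 5 had histone means of 4.86 and 4.85 with proliferating means of 10.7 and 10.8, and HET replicate 1 had 4.27 with 10.995. The part of proliferating cells in the histone values was not tested. In the 12 mice of each postnatal age, the same histone mean spanned 3.38 to 3.63 in 1-month, 3.35 to 3.68 in 6-month and 3.23 to 3.75 in 12-month mice. The lowest p at E14.5 belonged to Hist3h2a (-0.10), Hist1h2af (0.51) and Hist1h3d (0.43), each with an adjusted p of 0.98. Without WT replicates 2, 3 and 5, 0 of 56 members were called and the median was 0.09.

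At 1 month, Hist1h1d read 2.08, 2.84 and 3.27 in WT and 3.22, 3.27 and 3.67 in HET mice, a difference of 0.60 (SE 0.24, adjusted p = 0.46, exact two-sided permutation p = 0.026). The ranges overlapped, with 2 HET mice above every WT mouse. Hist2h2bb was higher by 0.43 and Hist1h2bc by 0.11 in HET mice, and neither was called.

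At 6 months, Hist1h4b read 2.85, 3.15 and 3.36 in WT and 2.09, 2.20 and 2.71 in HET mice, 5 of which were at the floor. Hist1h4b passed the filter through WT mice alone, so it had to be lower in HET mice, and the values here are a description of a gene chosen in this way. All 6 HET mice lay below all 6 WT mice, which 0.301% of all tested genes also showed, and no member above the filter in both genotypes did so. The difference was -0.87 (SE 0.19, adjusted p = 0.16), and the exact two-sided permutation test gave p = 0.0022, the smallest that 6 against 6 mice allow. It was called by limma without a trend (adjusted p = 0.041) and without a filter (adjusted p = 0.060). The filter of the main fit had fixed the direction of this gene. Its p-values and calls were therefore not read as support for a genotype difference. Hist1h4b shares 299 bases of exon with a lincRNA on the other strand, 4930558J22Rik, and 43.0% of its 50-base windows with other members. Hist1h4j differed by -0.58 (adjusted p = 0.58) and Hist1h1c by -0.30 (adjusted p = 0.62). Like Hist1h4b, Hist1h4j passed the filter through WT mice alone, so it had to be lower in HET mice. Among members above the filter in both genotypes, 6 of 6 H4 were below 0 (median -0.22), as were 4 of 4 H1 (median -0.27), 2 of 2 H3 (median -0.27), 6 of 7 H2B (median -0.11) and 3 of 5 H2A (median -0.02), and none of these was called. Over all members of a class, 9 H4 were below 0 and 3 above, 5 and 1 H1, 6 and 4 H3, 12 and 4 H2B, and 9 and 6 H2A. The H4 class mean was 3.20 ± 0.08 in WT and 2.99 ± 0.11 in HET mice (SD, n = 6).

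At 12 months, Hist3h2a read 7.52, 7.99 and 8.33 in WT and 7.39, 7.47 and 7.62 in HET mice, with 4 of 6 HET mice below every WT mouse. The difference was -0.46 (SE 0.11, adjusted p = 0.21, exact two-sided permutation p = 0.0065). It was called in one fit of all 48 mice (adjusted p = 0.0083), and without WT 12-month replicate 3 (0.072) or 4 (0.070). Trim17, whose exons overlap it, differed by -0.37 at this age and was not called. Hist1h2be read 5.99, 6.79 and 7.21 in WT and 5.95, 6.00 and 6.23 in HET mice, a difference of -0.61 (SE 0.20, adjusted p = 0.29, exact p = 0.035), called without WT 12-month replicate 3 (adjusted p = 0.098). Hist1h4i read 3.53, 4.54 and 5.53 in WT and 3.34, 3.86 and 4.27 in HET mice, a difference of -0.68 (SE 0.26, adjusted p = 0.34, exact p = 0.039), called in the fit of 48 mice (adjusted p = 0.086). For both genes the HET mice spanned a narrower range than the WT mice and reached below the lowest WT mouse. Hist1h2bc differed by -0.41 (adjusted p = 0.36, and 0.076 in the fit of 48 mice, where it was called), Hist2h4 by -0.59 and Hist1h4m by -0.53. Hist1h4m passed the filter through WT mice alone, so it had to be lower in HET mice. Among members above the filter in both genotypes, 6 of 6 H4 were below 0 (median -0.42), as were 4 of 4 H1 (median -0.30), 6 of 7 H2B (median -0.17), 2 of 3 H3 (median -0.06) and 1 of 3 H2A (median 0.10). Over all members of a class, 10 H4 were below 0 and 2 above, 4 and 1 H1, 11 and 4 H2B, 3 and 7 H3, and 9 and 6 H2A. The H4 class mean was 3.20 ± 0.18 in WT and 2.96 ± 0.18 in HET mice.

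**Figure D5:**
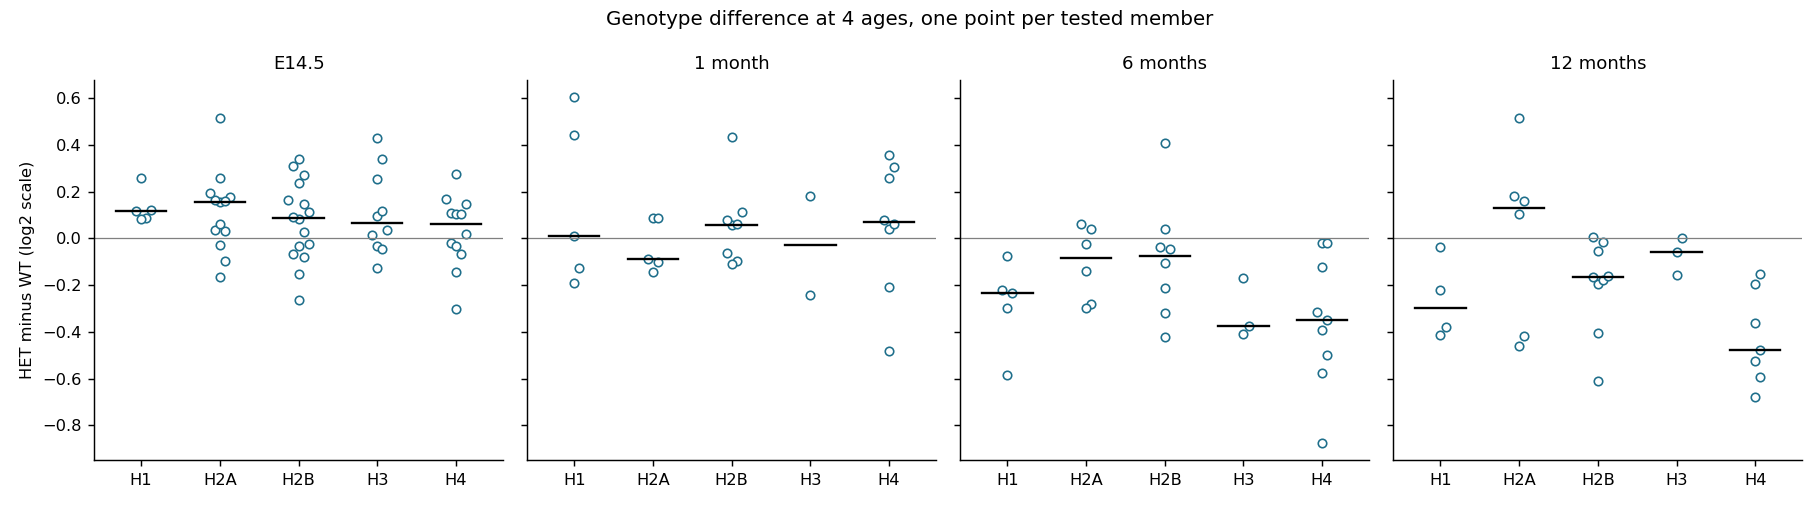
Difference between HET and WT mice (log2 scale) for each tested member by class at 4 ages. All points are open because limma called none at an adjusted p below 0.1, and bars are class medians. At 6 and 12 months, every tested H1 and H4 member lies below 0, although some passed the filter through WT mice alone and over all members 3 H4 and 1 H1 at 6 months and 2 H4 and 1 H1 at 12 months were above 0, while at E14.5 all 5 tested H1 members lie above 0 and the other classes on both sides.

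The genotype effect itself was compared between ages in one limma fit of 48 mice, which tested 46 members. No member was called for 1 month against E14.5, 6 against 1 month, 12 against 6 months or 12 months against E14.5, where 0.0%, 0.0%, 0.0578% and 0.0635% of all tested genes were called. At an unadjusted p below 0.05 there were 0, 3, 1 and 6 members, and 4.6%, 3.36%, 8.68% and 11.5% of all tested genes. Without WT E14.5 replicates 2, 3 and 5, both comparisons with E14.5 also called 0 members. With 1 mouse left out, at most 1 member was called. Hist3h2a was called for 12 against 6 months without WT 12-month replicate 3 or 4 and for 12 months against E14.5 without WT 12-month replicate 4, and Hist1h2bc for 12 months against E14.5 without WT E14.5 replicate 6. None of the genes in the lists for variant histones, 3′ processing, transcription and chaperones was called between genotypes at any age.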

How the data were processed

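PolyA RNA-seq of 48 mouse cortices was analysed from 1 deposited table of variance-stabilized values on a log2 scale. According to the methods and the submitters' processing notes, the authors aligned reads to mm9 with STAR 2.5.2b, quantified them with Salmon 0.11.3 and transformed them with DESeq2 1.22.2 in a model that corrected for a batch that is not named. The annotation is not given in the sources used here, and the labels and the methods name different library kits, of which only the methods describe the libraries as stranded. Read counts were not analysed here. Of all values, 15.7% were at the floor and 6.1% below it, and 3839 genes were constant. The means of replicates 1 to 3 and of replicates 4 to 6 were equal for each gene. Values of genes at the floor therefore carry a small shift.

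Samples were grouped by genotype and age from the labels. limma 3.58.1 (R 4.3.3, trended variance, Benjamini-Hochberg adjustment over all tested genes) compared 2 groups of 6 at a time, with genes at least 0.5 above the floor on average over the 12 mice. The threshold was an adjusted p below 0.1. One fit of 48 mice tested differences between genotype effects. Exact two-sided permutation tests used all 924 splits of 12 mice, so the smallest p is 0.0022. Nothing in the labels ties a mouse to a litter, and p-values measure the spread between these mice.

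Gene models and sequences came from GENCODE vM1 (mm9), and promoters from RefSeq GRCm38.p6. Shared sequence was counted as 50-base windows of a member's exons found in another member. Named members were those with the lowest p between genotypes (3 per age), up to 4 called per class and direction at each age step, the 3 with the highest mean per class, those the study lists, and those next to the filter. Hist1h4h, Hist2h4, Hist1h4k and others that were not called were named after their values were seen. The members and gene lists were chosen with earlier results of these data known. Alternatives were a replicate block, other filters, normalizations, covariates and subsets, and leaving out each mouse. The fits were tested on simulated data.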

Additional observations from a re-analysis of the deposited data

Results flagged for a closer look

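Of 128 series of 6 mice, 12 held a mouse far from the other 5 by Dixon's criterion. For normally distributed values, chance gives about 1 in 20 of them. Series with most mice at the floor, such as those of Hist1h3c and Hist1h4b below, are not of this kind, so the number flagged cannot be compared with that share. Among class means, HET 1-month replicate 5 had the lowest H2A mean of its group at 2.634 (next 2.714) and the highest H3 mean at 2.545 (next 2.446). WT 6-month replicate 5 had the highest H2B mean at 3.841 (next 3.648). Hist1h2be was highest in WT 1-month replicate 3 at 6.717 (next 6.14) and lowest in HET 1-month replicate 3 at 5.547 (next 6.042). WT 6-month replicate 3 was lowest for Hist1h1c at 6.641 (next 7.152) and for Hist1h4i at 3.426 (next 4.235). WT 12-month replicate 1 was lowest for Hist2h2bb at 3.764 (next 4.248). Hist1h3c was highest in WT 1-month replicate 4 at 2.797, in HET 6-month replicate 5 at 2.913 and in HET 12-month replicate 1 at 3.103, where the others of each group were at the floor (nearest 2.202). Hist1h4b was highest in HET 6-month replicate 4 at 2.707, with the next mouse at 2.196.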

How the results depend on the processing

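Genotype calls of members were 0 in nearly every setting, but 1 member was called at 6 months with no filter on low values and 1 with no trend, and 3 at 12 months in one fit of all 48 mice. From E14.5 to 1 month, a filter of 1.5 above the floor, which lets fewer members be tested, left 14 called members in WT and 16 in HET mice. These counts are therefore not comparable with those of the main filter. WT 1 to 6 months gave 1 call in replicates 1 to 3, 3 in replicates 4 to 6 and 3 at an adjusted p below 0.05, and HET 1 to 6 months gave 1 in replicates 4 to 6. The single HET call from 6 to 12 months went to 0 in replicates 1 to 3, in replicates 4 to 6, at an adjusted p below 0.05 and in one fit of 48 mice. Chd8 at E14.5 lost its call with no trend (-0.63), after centring (-0.58), in replicates 1 to 3 (-0.61) and, in an alternative chosen after seeing the data, without WT E14.5 replicates 2, 3 and 5 (-0.60, adjusted p = 1.0), and at 12 months in replicates 4 to 6 (-0.46). The cause of these losses was not tested.

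The correlation of same-numbered mice averaged 0.232 at E14.5, where 4 of 6 pairs were above 0.1 and 4 of 6 mice matched best with their own number, and 0.018, 0.045 and -0.034 at 1, 6 and 12 months. Since not every pair was above 0.1 at any age and the labels name no shared litter, the numbers were not taken as pairs. With a replicate block, the HET call from 6 to 12 months went to 0 members.

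Class differences from E14.5 to 1 month moved when taken as the median over members, to -2.12 (WT) and -1.95 (HET) for H1, -1.18 and -1.34 for H2A, -1.09 and -1.26 for H2B, and -1.65 (HET) for H3. Over members above the floor, H2A moved by -1.20 and -1.34. In HET mice, quantile normalization gave -1.08 for H2A and -1.07 for H4, and centring gave -1.14 for H2A, -1.07 for H2B and -1.05 for H4. The median of all genes for this step was 0.02 as deposited, -0.11 after quantile normalization and -0.19 after centring in WT mice.

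Uncalled genotype differences changed sign for Hist1h2bk at E14.5 (0.016 quantile, 0.021 centred, 0.032 in replicates 1 to 3), Hist1h4i at E14.5 (0.024 quantile, 0.023 centred), Hist1h4c (0.090 at E14.5 in replicates 4 to 6, -0.060 at 1 month in replicates 1 to 3, and at 6 months 0.0047 quantile and 0.0051 in replicates 4 to 6) and Hist3h2a at 6 months (0.015 with depth, 0.090 in replicates 4 to 6). Hist3h2a from 1 to 6 months in WT mice was 0.022 in replicates 1 to 3. At 1 month, Hist2h2bb was 0.44 (quantile) and 0.46 (centred), and Hist1h2bc 0.13 (centred).

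Leaving out 1 mouse at a time gave 0 to 2 called members at 12 months, 3 to 6 for WT 1 to 6 months, 0 to 1 for HET 6 to 12 months, and 0 to 1 for the differences between genotype effects of 12 against 6 months and 12 months against E14.5. Chd8 at E14.5 ranged from -0.67 to -0.57 and lost its call without WT replicate 2, 4 or 5 or HET replicate 4 (adjusted p of 0.12 to 0.13). Hist1h2bk at E14.5 ranged from -0.15 to 0.15, Hist1h4i at E14.5 from -0.14 to 0.066, Hist1h4c at 6 months from -0.11 to 0.067 and Hist3h2a at 6 months from -0.089 to 0.031. Genotype differences of single members ranged from -0.12 to -0.071 for Hist3h2a at E14.5. At 1 month they ranged from 0.32 to 0.53 for Hist2h2bb and 0.074 to 0.13 for Hist1h2bc. At 6 months they ranged from -0.69 to -0.46 for Hist1h4j and -0.39 to -0.24 for Hist1h1c. The filter of the main fit had fixed the sign for Hist1h4j. At 12 months they ranged from -0.75 to -0.50 for Hist1h2be and -0.88 to -0.48 for Hist1h4i.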
